A study of Homo sapiens
Mus musculus and Mus musculus and Homo sapiens with 3 samples.

Results

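LIN28A, LIN28B, HMGA1, HMGA2, IGF2BP1, IGF2BP2, IGF2BP3 and PRTG are 8 genes known from early stages of development, chosen by name out of the 15472 gene symbols that all the count tables of the series held. All 8 were found in every table and all 8 entered every test below. Mouse genes are written with the human symbols. The series profiled human and mouse pluripotent stem cells differentiated in vitro towards motor neurons, with single-cell RNA sequencing (droplets, 3′ ends) of GFP-positive cells sorted from dissociated embryoid bodies. One library held a mixture of species: its human cells, of the induced pluripotent line NCRM1, are human replicate 1, and its C57BL/6 mouse embryonic stem cells are mouse replicate 1. Human replicate 2 came from RUES1, a line labelled as induced pluripotent, and mouse replicate 2 again from C57BL/6 embryonic stem cells, each in a library of its own. All cells carried a CAGGS-driven GFP from a lentivirus with a 6-base-pair barcode. They were sampled every 48 h in human and every 24 h in mouse, and the tables do not give the day of a cell.

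LIN28A and LIN28B are RNA-binding proteins that hold back the maturation of let-7, a microRNA family that accumulates as cells leave early developmental stages. Several mRNAs repressed by let-7 encode proteins of young progenitors, among them the chromatin proteins HMGA1 and HMGA2, the mRNA-binding proteins of the IGF2BP family and LIN28 itself. PRTG (protogenin) is a cell-surface protein of the immunoglobulin superfamily that is found in the early neural tube. In the developing spinal cord, NFIA and NFIB are transcription factors of a later progenitor stage.

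A 7-base match to the let-7 seed (CTACCTC, the complement of let-7 bases 2 to 8, searched on the transcript strand) stood in the 3′ UTR of all 8 mouse genes. The longest annotated 3′ UTR of each gene was read (GENCODE M21, mm10). Among the 3′ UTRs of 20627 mouse genes, 9.18% held the letters, and between 8.09% and 33.6% did among UTRs within 20% of the length of a member's own. Lin28b, Hmga2 and Igf2bp1 held 4 matches each, Lin28a and Prtg 2 each, and Hmga1, Igf2bp2 and Igf2bp3 1 each. The 5′-most match of each gene follows because several members are known let-7 targets. Capitals mark the seed match within 30 bases of the UTR, written 5′ to 3′ as DNA. A match is a run of letters and no evidence of binding, and let-7 itself was not measured.
Lin28a: agcctgttgaaCTACCTCatttttgccgat
Lin28b: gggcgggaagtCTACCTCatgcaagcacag
Hmga1: ctgttcacaaaCTACCTCtggacggttgtg
Hmga2: acattcaatttCTACCTCagcatcagttgg
Igf2bp1: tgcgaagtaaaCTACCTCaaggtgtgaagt
Igf2bp2: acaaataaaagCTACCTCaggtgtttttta
Igf2bp3: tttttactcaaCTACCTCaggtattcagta
Prtg: ctgctgaatagCTACCTCagtttgctgtgg

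The Lin28a site lies at chr4:134005178-134005207 and the Lin28b site at chr10:45381011-45381040, both on the minus strand. The Hmga1 site lies at chr17:27563281-27563310 on the plus strand and the Hmga2 site at chr10:120364213-120364242 on the minus strand. The Igf2bp1 site (chr11:95961767-95961796), the Igf2bp2 site (chr16:22059462-22059491) and the Igf2bp3 site (chr6:49086776-49086805) are on the minus strand, and the Prtg site (chr9:72912562-72912591) is on the plus strand. Of UTRs of like length, 0.134% held at least as many matches as Hmga2, 0.236% as Lin28b and 0.355% as Igf2bp1. The share was 2.10% for Lin28a, 5.23% for Prtg, 8.09% for Hmga1, 12.1% for Igf2bp2 and 13.3% for Igf2bp3.

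Cells were sorted into gates by a few marker UMIs (unique molecular identifiers, counted transcripts) after each cell was thinned to 7000 UMIs. STMN2-positive cells (STMN2 is a microtubule regulator of young neurons) had 3 or more STMN2 UMIs, and COL1A2-positive cells (COL1A2 is a collagen of mesenchyme) had 2 or more COL1A2 UMIs. Of the rest, NEUROG2-positive cells had a UMI of this proneural factor, and SOX2-positive cells had a UMI of this neural progenitor factor and none of NEUROG2. In the order human replicates 1 and 2, then mouse replicates 1 and 2, there were 352, 371, 219 and 456 STMN2-positive cells, 494, 373, 377 and 379 NEUROG2-positive cells, and 713, 451, 717 and 856 SOX2-positive cells. COL1A2-positive cells numbered 119 and 194 in the human replicates and 51 in mouse replicate 2, with 0 in mouse replicate 1. The list of 9 neuron markers summed to between 5483 and 11345 CPM in STMN2-positive cells, against 63.5 to 287 in SOX2-positive cells. The list of 8 mesenchyme or neural crest markers summed to 1859, 3417 and 5419 CPM in COL1A2-positive cells of human replicates 1 and 2 and mouse replicate 2, against 3.46 to 53.5 in SOX2-positive cells. The neuron list holds STMN2 and the mesenchyme list holds COL1A2, which set the gates, so part of each contrast was fixed by the gating. Pluripotency markers POU5F1 and NANOG stood at no more than 0.557 and 0.292 CPM in SOX2-positive cells of any replicate. The median depth per cell was 10010, 16758, 14088 and 23083 UMIs in STMN2-positive cells and 13501, 21959, 21247 and 35445 UMIs in SOX2-positive cells.

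The counts of all cells of a gate were summed per replicate, and levels below are CPM, the UMIs of a gene scaled to a common total per sum. Changes are log2 fold changes with their standard errors (SE), and adjusted p-values come from edgeR's quasi-likelihood test with Benjamini-Hochberg adjustment over all genes tested. A gene is said to rise or fall where the adjusted p was under 0.05. Whether replicates of a species came from separate differentiations is stated only as far as the human replicates are different cell lines, so p-values measure the spread between these sums. Since days were pooled, a difference between gates and a difference in day of sampling cannot be told apart.

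In neurons the 8 genes were mostly lower than in progenitors, and HMGA2, HMGA1 and PRTG had the largest fitted changes in both species. In human STMN2-positive cells, 6 of the 8 genes fell relative to SOX2-positive cells and none rose. LIN28B and IGF2BP2 did not pass in human. In mouse all 8 fell. The background is high: of 12550 genes tested, 25.9% fell in human (45.5% were called in either direction), and 28.9% fell in mouse (57.1% in either direction). The median change of the 8 genes was -1.01 in human and -1.39 in mouse, against -0.09 and -0.00 for all genes. Scaling by DESeq2's size factors in place of edgeR's trimmed mean moved the median of all genes to 0.02 in human and 0.04 in mouse.

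**Figure D1:**
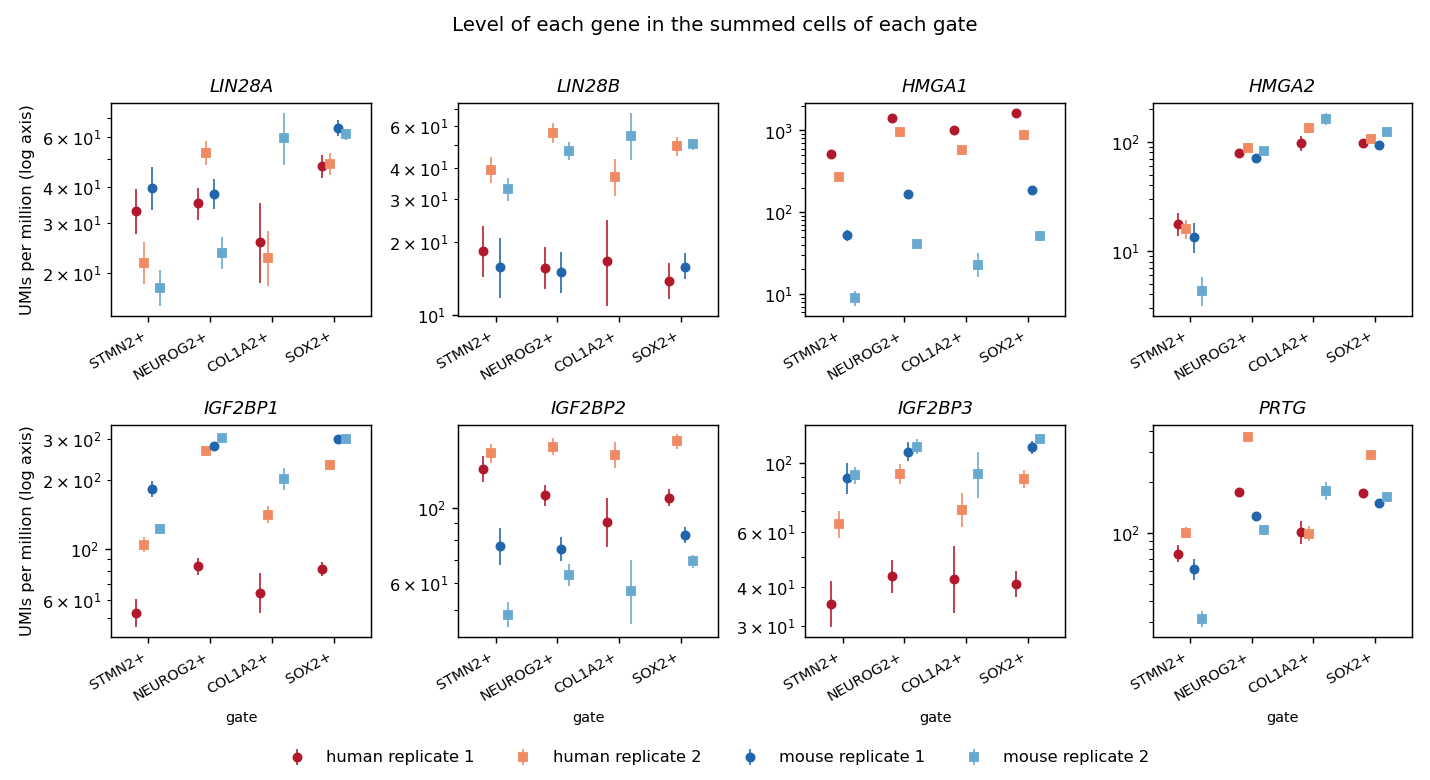
Level of each gene (CPM, log axis) in the summed cells of each gate, 1 point per replicate with its 95% Poisson interval, which covers counting error only. HMGA2 lies between 4.29 and 17.5 in STMN2-positive cells and between 94.1 and 124 in SOX2-positive cells, while LIN28B separates by replicate number in every gate drawn.

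LIN28A, the paralog best known for recruiting uridylating enzymes to the let-7 precursor, stood at 32.9 and 21.7 CPM in human STMN2-positive cells, against 47.3 and 48.1 in human SOX2-positive cells. In mouse it stood at 39.6 and 17.7 in STMN2-positive cells, against 64.5 and 61.2 in SOX2-positive cells. All 4 neuron sums lay below all 4 progenitor sums. LIN28A fell in human (log2 change -0.97 ± 0.26, adjusted p = 0.00956) and in mouse (-1.52 ± 0.25, adjusted p = 3.49e-04). The human call was lost without human replicate 1 (adjusted p = 0.0819), without human replicate 2 (adjusted p = 0.279) and with gates set on unthinned counts (-0.76, adjusted p = 0.0564). These fitted changes are on the scale of trimmed-mean normalization. The plain log2 ratios of CPM were -0.52 and -1.15 in human and -0.70 and -1.79 in mouse, the smaller being that of the mixed library in both species.

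LIN28B, the paralog that also acts on let-7 in the nucleus, stood at 18.3 and 39.4 CPM in human STMN2-positive cells, against 13.8 and 49.4 in human SOX2-positive cells. In mouse it was 15.8 and 32.8 in STMN2-positive cells, against 15.8 and 50.3 in SOX2-positive cells. The values separated by replicate number, not by species or gate. Replicate 1 of either species was at or below 18.3 and replicate 2 at or above 32.8. In SOX2-positive cells the log2 ratio of replicate 2 over replicate 1 was 1.84 in human and 1.67 in mouse. Replicate 1 of both species came from the mixed library, and its tables listed fewer gene rows than those of replicate 2. The part of the library and of the annotation in this split was not tested. The human change of LIN28B between the gates was -0.14 ± 0.21 (adjusted p = 0.603). In mouse it fell (-0.62 ± 0.20, adjusted p = 0.0219), but did not pass without mouse replicate 2 (-0.36, adjusted p = 0.418).

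HMGA2 had the largest changes among the members. This AT-hook protein, which shapes chromatin and is known for sustaining self-renewal of young neural stem cells in mouse, stood at 17.5 and 15.9 CPM in human STMN2-positive cells, against 96.5 and 105.7 in human SOX2-positive cells. In mouse it stood at 13.3 and 4.29 in STMN2-positive cells, against 94.1 and 124 in SOX2-positive cells. The gates did not overlap, and the SOX2-positive level was 5.51, 6.66, 7.07 and 28.9 times the STMN2-positive level in the 4 parts. HMGA2 fell in human (log2 change -2.75 ± 0.30, adjusted p = 2.96e-05) and in mouse (-4.16 ± 0.34, adjusted p = 1.96e-06). The mouse value was -5.04 without mouse replicate 1, -3.17 without mouse replicate 2, and -2.44 with looser gates. The neuron values rest on few UMIs, between 43 and 103 a sum.

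HMGA1, the other AT-hook protein, stood at 511.6 and 269.2 CPM in human STMN2-positive cells, against 1619 and 869.8 in human SOX2-positive cells. In mouse it stood at 52.6 and 8.87 in STMN2-positive cells, against 188.8 and 51.8 in SOX2-positive cells. Within each replicate the neuron level was the lower, and the human gates did not overlap, while mouse replicate 1 neurons and mouse replicate 2 progenitors were nearly level. HMGA1 fell in human (log2 change -1.82 ± 0.14, adjusted p = 2.86e-06) and in mouse (-2.42 ± 0.16, adjusted p = 4.92e-07). Human HMGA1 has pseudogenes, and its level is uncertain to the extent that reads were split between them.

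The IGF2BP family are mRNA-binding proteins named for their binding to IGF2 mRNA. IGF2BP1 stood at 52.6 and 104 CPM in human STMN2-positive cells, against 81.7 and 230.7 in human SOX2-positive cells, and at 181.7 and 121.8 in mouse STMN2-positive cells, against 300.7 and 300.3 in mouse SOX2-positive cells. It fell in human (log2 change -1.04 ± 0.18, adjusted p = 6.17e-04) and in mouse (-1.26 ± 0.17, adjusted p = 8.34e-05). IGF2BP3 had smaller changes: its level was 35.3 and 63.6 in human STMN2-positive cells, against 40.8 and 88.9 in human SOX2-positive cells, and 89.4 and 91.6 in mouse STMN2-positive cells, against 112.4 and 120 in mouse SOX2-positive cells. It fell in human (log2 change -0.49 ± 0.13, adjusted p = 0.00989) and in mouse (-0.61 ± 0.12, adjusted p = 0.00137). With DESeq2's size factors the human value was -0.36 with adjusted p = 0.0513, and the human calls of IGF2BP1 and IGF2BP3 were lost without human replicate 2 (adjusted p = 0.123 and 0.263), that of IGF2BP3 also without human replicate 1 (0.119).

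IGF2BP2, which is more widely expressed than its paralogs, did not pass in human. It stood at 130.1 and 144.5 CPM in human STMN2-positive cells, against 106.9 and 156.8 in human SOX2-positive cells, a change of -0.06 ± 0.13 (adjusted p = 0.751). In mouse it stood at 77.1 and 48.3 in STMN2-positive cells, against 83.1 and 69.5 in SOX2-positive cells, and fell (-0.57 ± 0.13, adjusted p = 0.00257). Without mouse replicate 2 the mouse value was -0.46 with adjusted p = 0.0541.

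PRTG stood at 75.7 and 100.6 CPM in human STMN2-positive cells, against 172.4 and 288.9 in human SOX2-positive cells, and at 61.3 and 31.1 in mouse STMN2-positive cells, against 150.9 and 163.7 in mouse SOX2-positive cells. The gates did not overlap in either species. PRTG fell in human (log2 change -1.5 ± 0.25, adjusted p = 5.52e-04) and in mouse (-2.11 ± 0.26, adjusted p = 4.11e-05). Without human replicate 2 the human change was -1.32 with adjusted p = 0.0553.

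**Figure D2:**
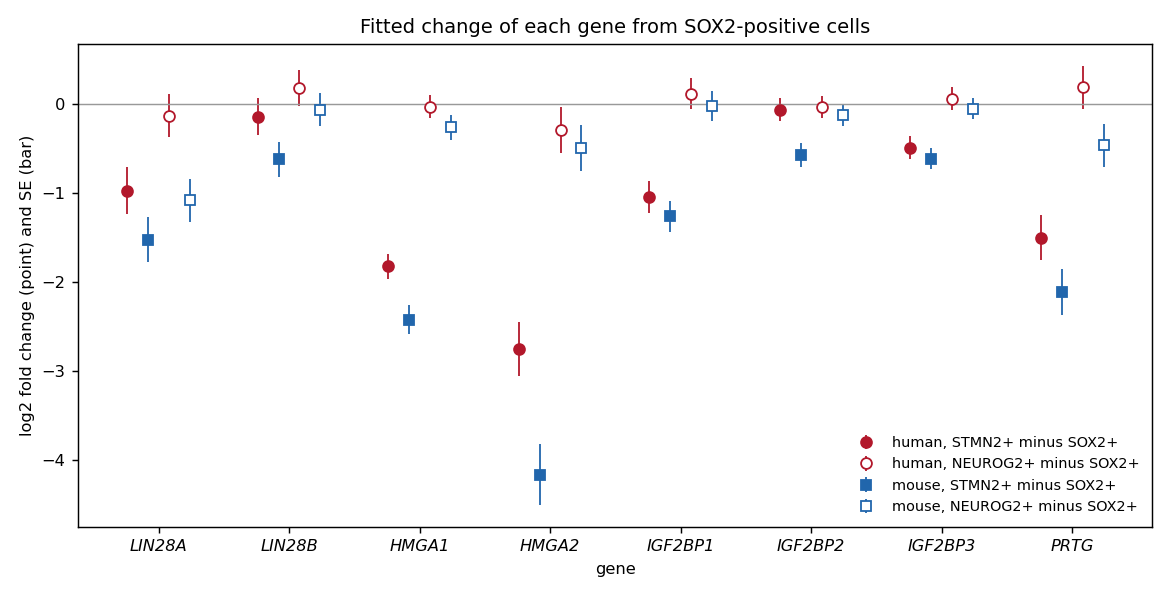
Fitted log2 fold change of each gene (points) with its SE (bars), for STMN2-positive minus SOX2-positive cells (filled) and NEUROG2-positive minus SOX2-positive cells (open), in human and in mouse. Changes in STMN2-positive cells reach -4.16 for mouse HMGA2, while in NEUROG2-positive cells mouse LIN28A at -1.08 lies farthest from 0.

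The human change was less negative than the mouse change for every member, by 0.12 to 1.41 on the log2 scale. A test of that difference passed for 1 of 8 genes, HMGA2 (1.41 ± 0.45, adjusted p = 0.0472). In the background, 8.56% of 12550 genes were called higher in this test and 19.9% in either direction. The HMGA2 value rests on mouse replicate 2: without it the difference was 0.49 (adjusted p = 0.265), and without mouse replicate 1 it was 2.29 (adjusted p = 1.41e-04). It also did not pass without human replicate 1 (1.5, adjusted p = 0.277) or human replicate 2 (1.64, adjusted p = 0.271). IGF2BP2 (0.51 ± 0.18, adjusted p = 0.0651) and HMGA1 (0.60 ± 0.20, adjusted p = 0.0588) came closest among the others.

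Within the neuron gate, HMGA2, PRTG and IGF2BP1 were lower in cells with more STMN2, in all 4 parts. HMGA2 levels in cells with 3 to 5, 6 to 11, and 12 or more STMN2 UMIs were 44.9, 21.8 and 11.5 CPM in human replicate 1 and 33.8, 20.9 and 13.7 in human replicate 2. In mouse replicate 1 they were 37.1, 4.24 and 1.55, the last from 2 UMIs, and in mouse replicate 2 they were 21.3, 6.76 and 2.04. Cells with the fewest STMN2 UMIs still had HMGA2 below the SOX2-positive cells of their own replicate. PRTG over the same steps stood at 234.7, 180.8 and 79.6 in human replicate 2 and at 93.3, 60.1 and 19.3 in mouse replicate 2. LIN28A had no common course: in mouse replicate 1 it stood at 28.1, 33.9 and 52.7, and in human replicate 2 at 37.8, 10.4 and 21.4. These steps are levels, with no test.

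**Figure D3:**
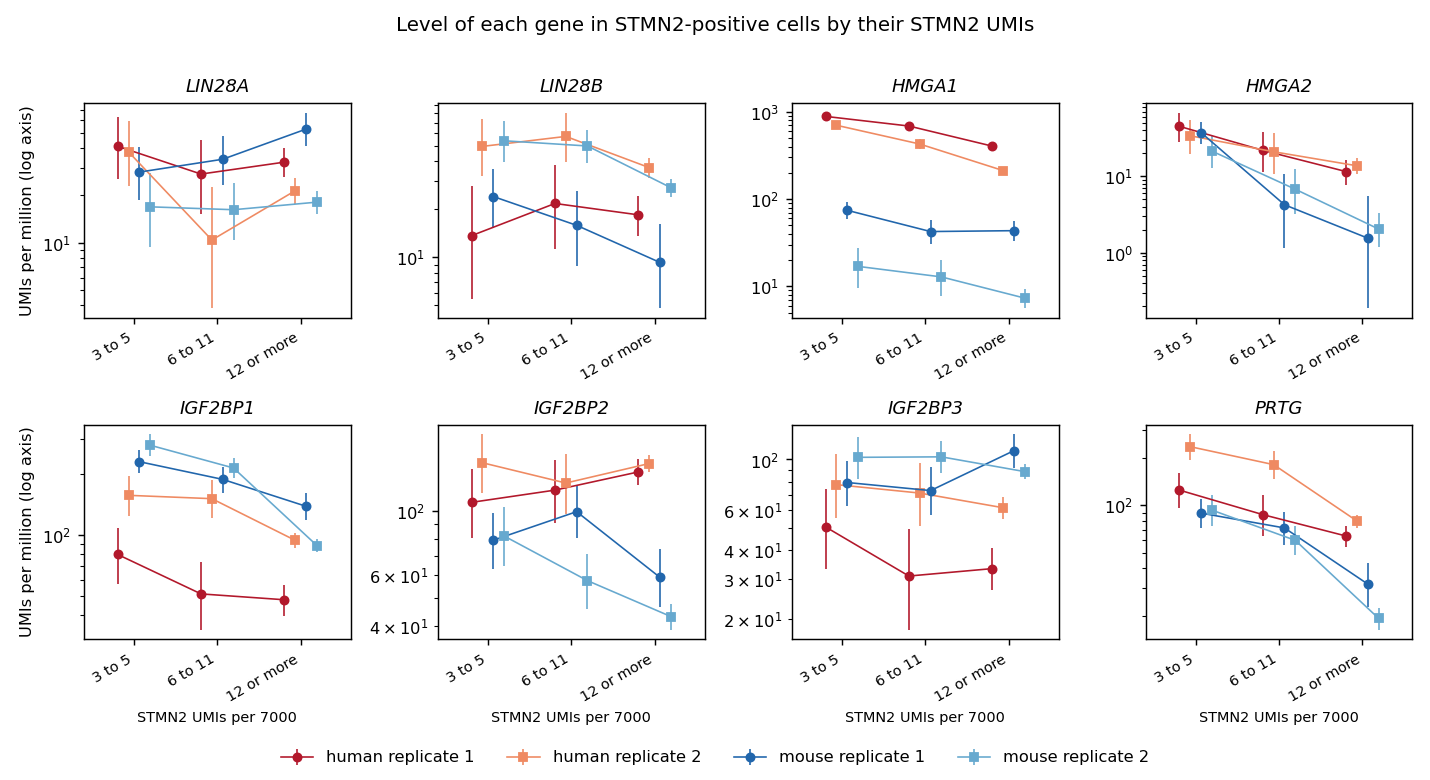
Level of each gene (CPM, log axis) in STMN2-positive cells binned by their STMN2 UMIs at 7000 UMIs per cell, 1 line per replicate, with 95% Poisson intervals covering counting error only. HMGA2, PRTG and IGF2BP1 lines run downwards in all 4 replicates, and LIN28A runs upwards in mouse replicate 1, to 52.7.

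NEUROG2 marks progenitors that enter neurogenesis, and in NEUROG2-positive cells 1 test passed for the 8 genes over both species. In human none of the 8 passed, with edgeR or with DESeq2, against a background of 0.717% of 12550 genes called. None had an unadjusted p under 0.05 either, against 933 of the 12550 genes. In mouse LIN28A alone fell (-1.08 ± 0.24, adjusted p = 0.0428), against a background of 0.741% of genes lower and 2.35% in either direction. Its level was 37.8 and 23.5 CPM in mouse NEUROG2-positive cells, against 64.5 and 61.2 in mouse SOX2-positive cells. In human it was 35.0 and 52.6 in NEUROG2-positive cells, against 47.3 and 48.1 in SOX2-positive cells, so the human gates overlapped. The mouse call was lost without mouse replicate 2 (-0.84, adjusted p = 0.486) and without either human replicate, which share the estimate of the spread (adjusted p = 0.172 and 0.167). The 4 log2 ratios of NEUROG2-positive over SOX2-positive HMGA2 levels ran from -0.58 to -0.26, all below 0, with fitted changes of -0.29 ± 0.26 in human and -0.49 ± 0.26 in mouse that did not pass.

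In human COL1A2-positive cells, LIN28A, HMGA1 and PRTG fell, 3 of 8, against a background of 11.7% of 12550 genes lower and 20.3% in either direction. LIN28A stood at 25.7 and 22.6 CPM in human COL1A2-positive cells, against 47.3 and 48.1 in SOX2-positive cells (-1.0 ± 0.29, adjusted p = 0.0305). PRTG stood at 101 and 99.0, against 172.4 and 288.9 (-1.16 ± 0.26, adjusted p = 0.00930), and HMGA1 at 1014 and 580.5, against 1619 and 869.8 (-0.62 ± 0.14, adjusted p = 0.00811). None of the 3 passed without human replicate 1 or without human replicate 2. HMGA2 stood at 97.2 and 132.3 in human COL1A2-positive cells, against 96.5 and 105.7 in SOX2-positive cells (0.19 ± 0.27, adjusted p = 0.678). In mouse only replicate 2 had such cells, so no test was made. There HMGA2 stood at 162.5 in COL1A2-positive cells and 124 in SOX2-positive cells, LIN28A at 59.2 and 61.2, and PRTG at 176.4 and 163.7. In these 51 mouse cells the 6 epithelium or endoderm markers summed to 498.8 CPM, against 99.8 in SOX2-positive cells of the same replicate, and their part in these levels was not tested. In human COL1A2-positive cells they summed to 68.9 and 66.3, against 104.5 and 185.3 in SOX2-positive cells.

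In mouse, progenitors with NFIA or NFIB had less LIN28A and PRTG. SOX2-positive cells with a UMI of either factor numbered 64 and 141 in the mouse replicates and 51 in human replicate 2, against 653, 715 and 400 without. Human replicate 1 had 10 such cells, too few for a sum, so human was not tested. In mouse, 5 of 8 genes fell in NFI-positive cells: LIN28A, LIN28B, HMGA1, IGF2BP1 and PRTG. The background was 5.45% of 11802 genes lower and 10.3% in either direction. This fit held 7 sums and 1 residual degree of freedom, so its errors lean on the spread shared over all genes.

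LIN28A stood at 24.0 and 24.2 CPM in mouse NFI-positive progenitors, against 67.7 and 65.8 in mouse NFI-negative progenitors, and fell (-1.63 ± 0.18, adjusted p = 7.17e-10). In human replicate 2 the values were 24.1 in NFI-positive and 50.7 in NFI-negative progenitors. The 3 NFI-positive values lay below every NFI-negative one. They rest on few UMIs, and how many other genes separated in this way was not counted. PRTG stood at 83.1 and 68.7 in mouse NFI-positive progenitors, against 156.2 and 175.7 in NFI-negative ones, and fell (-1.34 ± 0.12, adjusted p = 9.28e-12). In human replicate 2 PRTG was at 194 in NFI-positive and 299.2 in NFI-negative progenitors. Both calls also passed with DESeq2's test (adjusted p = 0.00102 for LIN28A and 3.62e-05 for PRTG). With classes set on unthinned counts both passed with smaller changes, -0.94 ± 0.10 for LIN28A and -0.80 ± 0.07 for PRTG.

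The other falls in mouse were smaller. LIN28B stood at 12 and 31.5 CPM in NFI-positive cells, against 16.1 and 52.7 in NFI-negative cells (-0.83 ± 0.21, adjusted p = 0.00442). HMGA1 stood at 158.6 and 34.8, against 191.1 and 54.0 (-0.60 ± 0.13, adjusted p = 0.00121). IGF2BP1 stood at 273.4 and 256.7, against 302.8 and 305.8 (-0.37 ± 0.11, adjusted p = 0.0172). These 3 did not pass with DESeq2's test (adjusted p = 0.862, 0.148 and 0.862). HMGA2, with 100.3 and 112.6 in mouse NFI-positive cells and 93.7 and 125.4 in NFI-negative cells, did not pass (-0.21 ± 0.13, adjusted p = 0.331), and neither did IGF2BP2 (-0.06 ± 0.13) or IGF2BP3 (-0.10 ± 0.12). Depth moved with the class, with a median of 17409 and 21573 UMIs in mouse NFI-positive cells and 21622 and 37889 in NFI-negative cells, and its part was not tested. The list of 5 glial markers summed to 56.6 and 32.4 CPM in mouse NFI-positive cells, against 30.3 and 6.44 in mouse NFI-negative cells, and to 33.2 in NFI-positive and 119.9 in NFI-negative cells of human replicate 2. Most of these UMIs were OLIG1, a factor of motor neuron and oligodendrocyte progenitors, with 56.6 and 27.7 in mouse NFI-positive cells, against 30.1 and 6.06 in NFI-negative cells. SOX10, a factor of oligodendrocyte and neural crest cells, stood at 0 and 4.13, against 0.133 and 0.0744, and PDGFRA was at 0 in NFI-positive cells of both mouse replicates. The part of these markers in the falls was not tested.

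**Figure D4:**
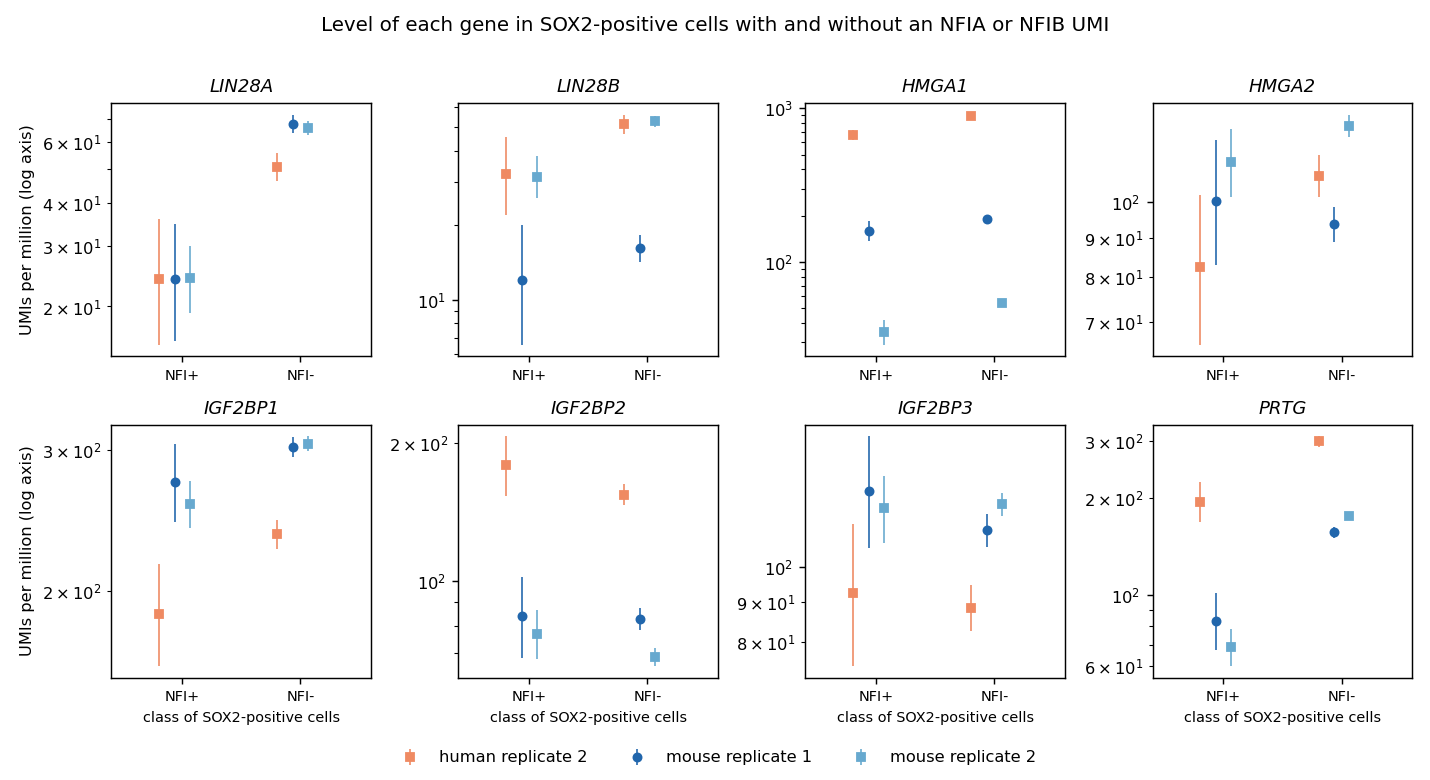
Level of each gene (CPM, log axis) in SOX2-positive cells with and without an NFIA or NFIB UMI, 1 point per replicate with its 95% Poisson interval, which covers counting error only; human replicate 1 had 10 NFI-positive cells and is not drawn. LIN28A is between 24.0 and 24.2 in NFI-positive cells of all 3 replicates, a range narrower than each interval, and between 50.7 and 67.7 in NFI-negative cells.

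Cycling progenitors, those with a UMI of MKI67 or TOP2A, had a median change over the 8 genes of 0.33 in human and 0.12 in mouse. In human, 4 of 8 genes rose in cycling SOX2-positive cells: IGF2BP1 (0.38 ± 0.09, adjusted p = 0.00500), LIN28A (0.52 ± 0.16, adjusted p = 0.0249), LIN28B (0.51 ± 0.16, adjusted p = 0.0348) and IGF2BP3 (0.38 ± 0.11, adjusted p = 0.0244). The background was 7.21% of 10927 genes higher and 12.9% in either direction. IGF2BP1 stood at 92.8 and 254.1 CPM in cycling cells, against 68.0 and 195 in non-cycling cells. LIN28A stood at 50.6 and 59.3, against 43.2 and 31.1, so the difference was mostly that of human replicate 2. Without human replicate 2 none of the 4 passed, and with DESeq2's test IGF2BP1 alone did (adjusted p = 0.0245). With thinning to 3000 UMIs LIN28B (0.12, adjusted p = 0.701) and IGF2BP1 (0.22, adjusted p = 0.146) did not pass. In mouse 0 of 8 passed, with edgeR and with DESeq2, against a background of 2.63% of 10927 genes. At an unadjusted p under 0.05 there were 2 members, IGF2BP1 and PRTG, against 1179 of the 10927 genes. PRTG stood at 160.2 and 169.1 in mouse cycling cells, against 130.6 and 145.4 in non-cycling cells (0.27 ± 0.09, adjusted p = 0.136). When gates were set on unthinned counts 7 of the 8 mouse members passed, but calls over all genes rose many times as well (given below). That setting left 177 and 72 non-cycling cells in the mouse replicates, against 643 and 1071 cycling cells. In the main setting the classes lay less far apart in mouse. Their gating genes MKI67 and TOP2A differed by 1.69 and 2.22 in mouse, against 4.49 and 4.86 in human. CDK1, which did not gate, differed by 1.24 in mouse and 3.05 in human. The part of this weaker split in the unlike counts of the species was not tested. Cycling cells were deeper than the others, with medians of 14973, 26120, 23228 and 36140 UMIs against 12464, 18540, 16822 and 31986.

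Across single SOX2-positive cells correlations between members were low. Over 28 pairs the median of the correlation averaged over the 4 parts was 0.06 (Pearson, log2 of UMIs at 7000 plus 1), and 1 pair reached 0.2, LIN28A with PRTG. Its correlation was 0.09 and 0.30 in the human replicates (713 and 451 cells) and 0.25 and 0.35 in the mouse replicates (717 and 856 cells). The cells of a replicate share a library, and they mix days and depths, so these values are descriptions. LIN28A averaged -0.09 with NFIA and -0.10 with NFIB, and PRTG averaged -0.12 and -0.10. Both were negative in all 4 parts, though in human replicate 1 only 10 of the 713 cells had an NFIA or NFIB UMI. The correlation of HMGA1 with the summed S phase genes was 0.22 and 0.54 in human and 0.21 and 0.07 in mouse. That of IGF2BP1 varied less, at 0.15 and 0.24 in human and 0.19 and 0.13 in mouse, with a mean of 0.15 with G2/M genes, and IGF2BP2 stood at 0.00 and 0.01.

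By likeness over all gated cells, PRTG was the gene most like LIN28A (mean r 0.23), followed by NCL, which encodes nucleolin, at 0.20. HMGA1 was most like genes of ribosomal proteins, RPLP1 (0.42), RPL41 (0.41) and RPS2 (0.40). By replicate, its r with RPLP1 was 0.58 and 0.51 in human and 0.35 and 0.23 in mouse. HMGA2 was most like RPL41 (0.28), HSPE1 (0.28), a mitochondrial chaperonin, and MDK (0.27), a growth factor. IGF2BP1 was most like HMGN2 (0.29), SET (0.27) and RAN (0.26), and PRTG was most like MDK (0.31), RPLP1 (0.29) and RPL41 (0.28). For LIN28B, IGF2BP2 and IGF2BP3 no gene reached a mean of 0.2 among the 5919 compared. All gates were pooled for these values, and the part of differences between gates in them was not tested.

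Between species HMGA1 stood apart. It was at 1619 and 869.8 CPM in human SOX2-positive cells, against 188.8 and 51.8 in mouse SOX2-positive cells, a log2 difference of 3.20 ± 0.78 (adjusted p = 0.0193), and it was the 1 gene of 8 that passed. The background was 17.2% of 11160 genes higher in human and 30.4% in either direction. In STMN2-positive cells HMGA1 was again the 1 gene of 8 (3.74 ± 0.96, adjusted p = 0.0476), against 9.91% of 10459 genes higher in human and 17.0% in either direction. With 1 replicate left out the SOX2-positive difference ran between 2.40 and 4.58 and passed each time. The STMN2-positive call did not pass when any 1 of the 4 replicates was left out (adjusted p between 0.0696 and 0.116). Within the mixed library, where human and mouse cells were processed together, the human level was 8.58 times the mouse level in SOX2-positive cells; between the second libraries it was 16.8 times. The HMGA1 pseudogenes and the different annotations of the species limit how far the size of this difference can be read, and their part was not tested.

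IGF2BP1 and IGF2BP3 were lower in human SOX2-positive cells without passing (-1.2 ± 0.43, adjusted p = 0.0699, and -1.07 ± 0.37, adjusted p = 0.0616). Both depended on the library pair, since the log2 ratio of human over mouse IGF2BP1 was -1.88 in the mixed library and -0.38 between the other pair. For IGF2BP3 these ratios were -1.46 and -0.43. In human replicate 2 IGF2BP1 was 2.82 times as high as in human replicate 1, while the mouse replicates differed by 1.00 times. HMGA2 levels in SOX2-positive cells were close between species, with log2 ratios of 0.04 and -0.23. LIN28A had ratios of -0.45 and -0.35, PRTG of 0.19 and 0.82, and IGF2BP2 of 0.36 and 1.17.

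**Figure D5:**
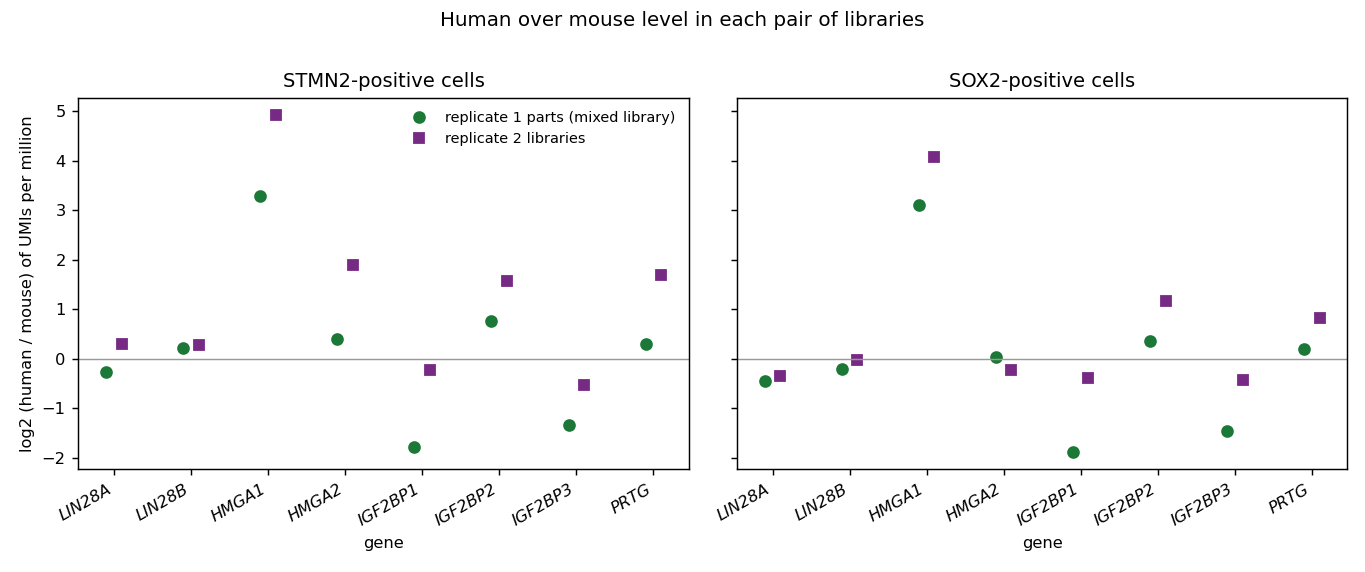
log2 ratio of human over mouse level for each gene, within the mixed library (circles, replicate 1 of each species) and between the replicate 2 libraries (squares), in STMN2-positive cells (left) and SOX2-positive cells (right). HMGA1 lies between 3.1 and 4.92 in all 4 cases, and IGF2BP1 lies at -1.88 and -0.38 in SOX2-positive cells.

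Other genes of the LIN28 and let-7 pathway were taken from lists. Of 11 genes of let-7 processing and LIN28 partners, 2 fell in human STMN2-positive cells and none rose (median -0.23), and in mouse 6 fell and 1 rose (median -0.37). Over all genes tested 25.9% fell and 19.6% rose in human, and 28.9% fell and 28.1% rose in mouse, so the human count is not above the background. TRIM71, an RNA-binding ubiquitin ligase that is itself a let-7 target, fell in human (-1.04 ± 0.24, adjusted p = 0.00388) and in mouse (-1.39 ± 0.22, adjusted p = 1.98e-04). AGO2, the Argonaute protein that carries microRNAs, fell in both as well (-0.78 ± 0.18 and -0.90 ± 0.15). Of 18 reported let-7 or LIN28 targets, 9 fell and 1 rose in human neurons (median -0.75), and 7 fell and 4 rose in mouse neurons (median -0.91); the mouse counts are near the shares over all genes. The 6 with the largest mean change were CCND2, DNA2, CDC25A, E2F5, MYCN and CDK6, all lower in both species. Among them the cyclin CCND2 changed by -1.01 ± 0.31 in human and -4.61 ± 0.35 in mouse, and the growth regulator MYCN by -1.2 ± 0.26 in human and -1.59 ± 0.26 in mouse. Most of these act in DNA replication or cell division. Cell cycle genes as a whole were lower in neurons: all 19 tested S phase genes and all 20 G2/M genes fell in human and in mouse. The part of the cell cycle in the falls of the listed targets was not tested.

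In mouse NFI-positive progenitors, 2 of the 11 processing genes fell, TRIM71 (-1.44 ± 0.18, adjusted p = 5.56e-08) and AGO2 (-0.56 ± 0.17, adjusted p = 0.0216), and 6 of the 18 targets fell with none higher (median -0.42). Over all genes tested 5.45% fell and 4.90% rose. Of 9 late temporal factors 6 rose (median 1.81). This count and this median include NFIA and NFIB, which rose by construction of the class and are no result. The others that rose were SOX9 (2.22 ± 0.20), ZBTB20 (1.73 ± 0.23), HOPX (4.43 ± 0.54) and NFIC (1.74 ± 0.45). Of 7 tested genes of the early or pluripotent list 6 fell (median -1.39), with CRABP1, a retinoic acid binding protein, at -1.42 ± 0.13. These genes were chosen for naming after their values were seen. In the same cells 11 of 19 S phase genes fell (median -0.38) and 4 of 20 G2/M genes rose (median 0.10).

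In neurons, by contrast, CRABP1 rose in both species (7.39 ± 0.91, adjusted p = 6.21e-05, in human and 2.30 ± 0.67, adjusted p = 0.0121, in mouse), while DPPA4, SALL4 and EPCAM of the same list fell in both. The late temporal factors had no common direction in neurons: 1 rose and 1 fell of 9 in human, and 4 rose and 2 fell in mouse, against 19.6% of all genes higher and 25.9% lower in human and 28.1% higher and 28.9% lower in mouse. In mouse NFIA rose (1.67 ± 0.55, adjusted p = 0.0210) and NFIB fell (-2.10 ± 0.44, adjusted p = 0.00176). NFIC rose as well (0.89 ± 0.27, adjusted p = 0.0135); these were named after their values were seen. ZBTB20 rose in both (1.99 ± 0.24 in human and 1.98 ± 0.22 in mouse).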

How the data were processed

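The 8 genes and the gene lists were chosen with earlier results of these data known. The deposited tables hold raw UMI counts per gene and cell; per the submitters' processing notes Cell Ranger 3.1.0 and the builds hg38 and mm10 were used, and the annotation is not given in the sources used here. In all, the 4 tables held 2407, 2044, 1881 and 2783 cells (human replicates 1 and 2, mouse replicates 1 and 2) with 28577630, 32803173, 38166382 and 83969715 UMIs, and the number of gene rows differed between replicates of a species. A cell was kept if it had 1000 or more UMIs and 500 or more genes, with no more than 10% of UMIs mitochondrial. The 60 barcodes shared by the species tables of the mixed library were removed, since such droplets may hold cells of both species; 2 or fewer were shared by any other pair of tables. Doublets called by Scrublet in scanpy 1.11.5 (11, 24, 5 and 32 cells) were removed, which left 2321, 1805, 1811 and 2674 cells. Gates were set on cells thinned to 7000 UMIs; 394, 344, 67 and 153 shallower cells were left out, and so were 6 and 2 cells of the replicate 2 libraries that passed both the STMN2 and the COL1A2 gate.

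Unthinned counts were summed per gate and replicate where 30 or more cells were present. edgeR 4.0.16 was used (trimmed-mean scaling, filterByExpr, quasi-likelihood fit). Gates were fitted together with the replicate as a block (15 sums, 5 residual degrees of freedom), since gates of 1 replicate come from the same library. Species were compared over 4 sums of 1 gate (2 residual degrees of freedom), and cycling classes over 8 sums with the block (2 residual degrees of freedom). The NFI classes gave 7 sums (1 residual degree of freedom). Correlations are Pearson's r over cells thinned to 7000 UMIs. The fits were tested on simulated data, but no outcome is given here, so this says nothing on their error rates with so few degrees of freedom. Alternatives were DESeq2 1.42.0, its size factors, no filter, no block, narrower fits, each replicate left out, other gates and thinning depths, and doublets kept. Named genes of the lists are those past the threshold in the same direction in both species, at most 6 a list, unless stated.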

Additional observations from a re-analysis of the deposited data

Results flagged for a closer look

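The change of HMGA2 in STMN2-positive against SOX2-positive cells differed between species by 1.41 on the log2 scale (human change minus mouse change, edgeR adjusted p = 0.0472), which a test of the difference itself picked out. The difference was 0.49 (adjusted p = 0.265) without mouse replicate 2 and 0.31 (adjusted p = 0.343) with looser gates. It did not pass with DESeq2's test (1.34, adjusted p = 0.0749), without the replicate block (1.17, adjusted p = 0.497) or with only the 2 classes in the fit (1.45, adjusted p = 0.120). The human sums were 17.5 and 15.9 CPM in neurons, against 96.5 and 105.7 in progenitors, and the mouse sums were 13.3 and 4.29, against 94.1 and 124.

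For 3 other genes the level in NEUROG2-positive cells over that in SOX2-positive cells was above 1 in both human parts and below 1 in both mouse parts, by small amounts, and none of these changes passed in either species. The log2 ratio of LIN28B was 0.18 and 0.18 in human and -0.08 and -0.09 in mouse. That of IGF2BP3 was 0.08 and 0.05 in human and -0.05 and -0.09 in mouse. That of PRTG was 0.01 and 0.35 in human and -0.27 and -0.66 in mouse. The difference between species was not tested for these.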

How the results depend on the processing

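No result changed direction where it had been called under any alternative run, and of the tested values of single genes under an alternative 36 newly passed and 89 no longer passed. A further 15 of the untested human over mouse ratios within a library pair lay more than 1 SE from the fitted difference. The number of the 8 genes called was moved by over 1.5 times as follows. Without the replicate block it was 2 for human STMN2-positive cells (6 with it), 2 for mouse STMN2-positive cells (8 with it), and 0 for human COL1A2-positive cells, mouse NEUROG2-positive cells, the species difference in change, human cycling cells and mouse NFI-positive cells. With DESeq2's test it was 0 for the species difference in change, 3 for species in SOX2-positive cells, 1 for human cycling cells and 2 for mouse NFI-positive cells; with no filter it was 3 for species in SOX2-positive cells. With only the 2 classes in the fit it was 4 for mouse NEUROG2-positive cells, 0 for the species difference in change and 2 for human cycling cells. Looser gates gave 0 for the difference in change and for species in STMN2-positive cells. Stricter gates gave 1 for human NEUROG2-positive cells, 2 for mouse NEUROG2-positive cells, 3 for the difference in change and 2 for species in STMN2-positive cells. Thinning to 3000 UMIs gave 0 for mouse NEUROG2-positive cells and 2 for the difference in change. Gates on unthinned counts gave 1 for human COL1A2-positive cells, 0 for mouse NEUROG2-positive cells, the difference in change and human cycling cells, and 7 for mouse cycling cells. The cause was not tested for any of these.

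With 1 replicate left out, the number of genes called ran between 2 and 6 for human STMN2-positive cells, 6 and 8 for mouse STMN2-positive cells, 0 and 4 for human COL1A2-positive cells, 0 and 1 for mouse NEUROG2-positive cells, 0 and 4 for the difference in change, 1 and 2 for species in SOX2-positive cells, 0 and 5 for human cycling cells, and 0 and 1 for mouse cycling cells; it was 0 for species in STMN2-positive cells in all 4. The lone replicate left in a species is then assumed to vary like the others. Mouse NFI-positive cells could not be fitted without either mouse replicate, with stricter gates or with thinning to 3000 UMIs, since too few cells were left; human replicates left out gave 4 and 5.

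Over all genes, 46 counts of calls moved by over 1.5 times. Without the block they were 1738 for human STMN2-positive cells (5711 with it), 2870 for mouse STMN2-positive cells (7164), 397 for human COL1A2-positive cells (2552), 1 for mouse NEUROG2-positive cells (295), 71 for the difference in change (2500), 46 for human cycling cells (1413), and 0 for human NEUROG2-positive cells (90), mouse NFI-positive cells (1221) and mouse cycling cells (287). With 1 replicate left out the lowest counts, in the same order, were 1939, 4278, 232, 15, 250, 671, 0, 1069 and 112, and for species they were 1919 in SOX2-positive cells (3397) and 0 in STMN2-positive cells (1780). DESeq2's test gave 101 for mouse NFI-positive, 605 for human cycling and 87 for mouse cycling cells. With only the 2 classes in the fit there were 634 for human and 1483 for mouse NEUROG2-positive cells and 1412 for the difference in change. Stricter gates gave 252 and 631 for human and mouse NEUROG2-positive cells. Thinning to 3000 UMIs gave 484 for mouse NEUROG2-positive and 145 for mouse cycling cells, and unthinned gates gave 126 for mouse NEUROG2-positive, 692 for human cycling and 2130 for mouse cycling cells. With 2 parts a species, differences between species are the least certain. Few UMIs stand behind HMGA2 in neurons, and also behind LIN28A and LIN28B in NFI-positive cells and LIN28A in COL1A2-positive cells.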

Other observations

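Neurons with an NFIA or NFIB UMI were frequent enough to be read in mouse replicate 2 (113 cells, against 343 without). In these STMN2-positive cells LIN28B stood at 14.3 CPM in cells with NFI and 39.5 in cells without, LIN28A at 9.45 and 20.7, IGF2BP1 at 84.7 and 135.3, and PRTG at 18.2 and 35.8. HMGA2 stood at 6.30 and 3.56, from 18 and 28 UMIs, and IGF2BP2 at 51.4 and 47.2. In human replicate 2 (32 cells with NFI and 339 without) LIN28B stood at 12.7 and 42.3, PRTG at 30.1 and 108.2, and IGF2BP2 at 171.1 and 141.6. Each is a pair of values within 1 library, with no test.

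Host transcripts of let-7 clusters were not listed in all tables and were not tested. MIR100HG stood at 44.2 CPM in STMN2-positive cells and 46.1 in COL1A2-positive cells of human replicate 2, against 3.63 in SOX2-positive cells. In the same order MIRLET7BHG stood at 0.616, 0.273 and 0.490 in human replicate 2, from 4, 1 and 5 UMIs. MIR99AHG stood at 46.7 in STMN2-positive and 44.0 in SOX2-positive cells of human replicate 2, and at 67.3 in STMN2-positive and 49.6 in SOX2-positive cells of mouse replicate 2. In human replicate 1 it is listed under its older symbol LINC00478 and stood at 13.0 in STMN2-positive and 18.6 in SOX2-positive cells. Among SOX2-positive cells of mouse replicate 2 it stood at 137.3 in NFI-positive and 38.5 in NFI-negative cells, and in human replicate 2 at 54.3 in NFI-positive and 42.9 in NFI-negative cells.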
